A study of Neurospora crassa with 33 samples.

Results

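Ribosome-protected fragments (RPFs) were compared between a Δ*cpc-3* strain and a WT strain of *N. crassa* that both carried the 3xOPT-EDP reporter. The comparison holds 6 of the 33 libraries of the series, 3 from Δ*cpc-3* and 3 from WT, and they were chosen by the host strain, the reporter and the molecule that the labels give, without use of any measured value. The remaining libraries are RPFs of the same pair of host strains with the other EDP reporters (25 RPF libraries in all) and 1 mRNA library for each strain and reporter. The Δ*cpc-3* strain lacks *cpc-3* (NCU01187). The WT strain is of mating type a. By the methods, all 6 libraries share the reporter insertion. It is a Flag-tagged CDS made of 3 copies of NCU05784 with optimized codons, driven by the *ccg-1* promoter. It was placed at the *csr-1* locus by homologous recombination. The strains were made homokaryotic by microconidia purification, and the sources used here do not say whether the replicates of a strain go back to 1 transformant. Mycelia were started from conidia in plates of glucose medium, cut into discs and grown in shaken flasks in constant light at room temperature, and cycloheximide was present in the lysis buffer only.

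CPC-3 is the *Neurospora* homolog of the kinase GCN2. When uncharged tRNA or stalled ribosomes activate it, it phosphorylates the initiation factor eIF2α, which lowers the supply of initiator tRNA to ribosomes and slows the start of translation on most mRNAs. At the same time the translation of CPC-1, the homolog of yeast GCN4, goes up through upstream reading frames in its leader, and CPC-1 switches on genes of amino acid synthesis, which is known as cross-pathway control. Ribosome profiling sequences the pieces of mRNA that ribosomes cover, so an RPF level depends on how much mRNA a gene has and on how many ribosomes sit on each molecule, and these cannot be told apart from RPFs alone.

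The deposited values are FPKM with the bounds of an interval for each of 9731 entries, that is 9729 genes and a pair of EDP entries. Each gene was given in 2 ways, both in ppm, that is scaled to a library sum of 1000000: the FPKM level, which is the FPKM over its sum, and the midpoint level, which is the mean of the interval bounds over its sum. Both are per length of CDS. The interval bounds moved in whole steps, and the libraries held 4069261, 4088973 and 1223670 steps on CDS in Δ*cpc-3*, against 8751919, 10036685 and 3038385 steps in WT, so replicate 3 was the shallowest library of each strain. A step may be less than 1 read, so 1 count was taken as 2 steps wherever a counting interval or a limit for 0 is given, and these cover counting error only. In the libraries compared here, the ratio of FPKM to midpoint was not the same in the strains. For CDS over 1800 nt its median was 0.72, 0.71 and 0.74 in the Δ*cpc-3* libraries, against 0.98, 0.98 and 1.01 in the WT libraries, and the sources used here do not describe the step behind it. The largest share of the FPKM sum went to the 78-nt CDS NCU16635, with 30.0%, 30.0% and 32.0% in Δ*cpc-3*, against 24.9%, 23.2% and 10.01% in WT. A gene is therefore called changed here mainly where both levels passed the test, and the median gene differed by -0.24 (log2) on the FPKM level and by 0.01 on the midpoint level.

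The libraries were first set against their labels. RPFs of *cpc-3* were 0 in each of the 3 Δ*cpc-3* libraries, against 14.3, 13.2 and 12.2 in WT libraries, so the deletion showed in every library, replicate 3 included. The summed level of 4 markers of conidia and aerial hyphae (*eas*, *con-6*, *con-8*, *con-10*) was 5420, 5157 and 4921 in Δ*cpc-3*, against 1996, 1908 and 1759 in WT, with *eas* as the largest part in Δ*cpc-3*. In bulk mycelium, more cells of a type and more RNA per cell cannot be told apart. The mating type A genes *matA-1*, *matA-2* and *matA-3* were at 0 in all 6 libraries. Neither *mus-51* nor *mus-52*, the end-joining genes that are deleted in many strains used for knockouts, passed the test, and both had RPFs in every library.

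Replicate 3 stood apart at the reporter locus, with other reporters too. RPFs of *csr-1*, the cyclosporin A target whose locus received the reporter, were 0.922, 0.919 and 16.4 in Δ*cpc-3* libraries, against 38.9, 39.1 and 11.7 in WT libraries, so that replicate 3 of Δ*cpc-3* was above replicate 3 of WT while the other replicates had the opposite order. The midpoint test did not pass over all 6 libraries (log2 difference -3.34 ± 1.20 (SE), adjusted p = 0.0984). Without replicate 3 of both strains the log2 difference was -5.26 (adjusted p = 0.000881), and without replicate 3 of Δ*cpc-3* alone it was -4.68 (adjusted p = 0.00823). The FPKM test passed over all 6 libraries, at -4.04 ± 1.19 (adjusted p = 0.0353). It passed without replicate 3 of Δ*cpc-3* (-5.48) and was lost without any of the other 5 libraries (-4.57 to -3.32, adjusted p = 0.0731 to 0.0961). The reversal recurred with other reporters: *csr-1* in replicate 3 was at 30.1 in Δ*cpc-3* and 0.806 in WT with 1xOPT-EDP, and at 53.5 in Δ*cpc-3* and 0.832 in WT with 3xWT-EDP, while in replicates 1 and 2 it was at 0 to 0.69 in Δ*cpc-3* and at 43.6 to 71.2 in WT. With 1xWT-EDP, replicates 2 and 3 of Δ*cpc-3* were at 29.3 and 27.3, against 27.6 and 0.466 in WT. In the 1 mRNA library per strain, the *csr-1* midpoint level was 81.4 in Δ*cpc-3* and 713 in WT. The methods describe insertion at this locus and screening for cyclosporin A resistance, so low *csr-1* levels would be looked for in both strains. The high levels in some libraries do not match that description, and the reason was not tested. WT replicate 3 also differed more from the other WT replicates (mean chi-square per count 2.89 and 2.81) than these did from each other (1.11). The Δ*cpc-3* replicates had 1.07 to 1.18 among themselves, and counting noise alone gives about 1 if 1 count is 2 steps. The gap was smaller by the median gene. Counted in steps, where noise alone then gives about 2, WT replicate 3 had 2.82 and 2.83, beside 2.23 between WT replicates 1 and 2. The Δ*cpc-3* replicates had 2.11 to 2.30. The methods call the replicates biological, while the labels do not tie them to separate cultures, so the p-values measure the spread between these libraries. The calls over all genes, those of the gene lists and those of the named genes were therefore also made without replicate 3 of both strains, a choice made after seeing the data. The other counts and contrasts were not.

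**Figure D1:**
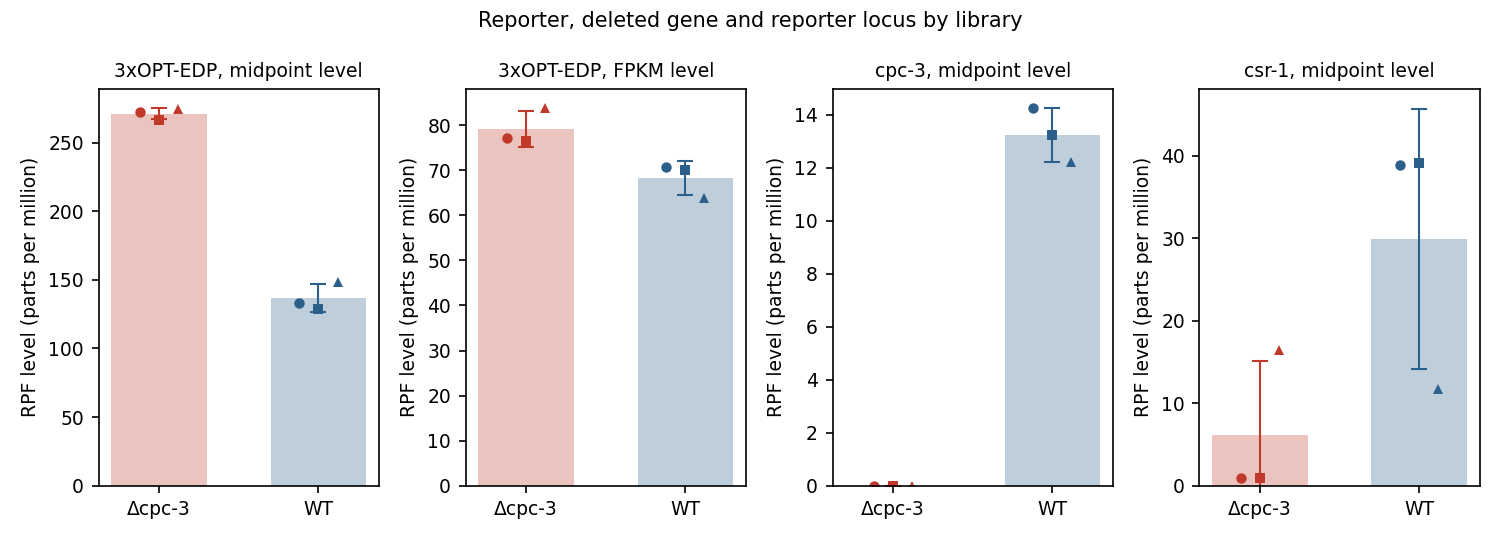
RPF level (ppm) by library for the OPT-codon EDP entry on the midpoint and the FPKM level, and for *cpc-3* and *csr-1* on the midpoint level. Bars are means, error bars are SD (n = 3), and circles, squares and triangles are replicates 1, 2 and 3. *cpc-3* is at 0 in all 3 Δ*cpc-3* libraries and at 12.2 to 14.3 in the 3 WT libraries, while for *csr-1* replicate 3 has 16.4 in Δ*cpc-3* and 11.7 in WT, the reverse of the other replicates.

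Deletion of *cpc-3* went with RPF differences at many genes. Of 6662 genes tested with limma on log2(level + 0.1), 533 were higher in Δ*cpc-3* on both levels (8% of the genes tested) and 675 were lower on both levels (10.1%), at an adjusted p under 0.05. The 3 Δ*cpc-3* libraries did not overlap the 3 WT libraries on either level for 532 of the higher genes (7.99% of the genes tested) and for all 675 of the lower ones (10.1%). The midpoint level alone gave 860 higher (12.9%) and 717 lower genes (10.8%). The FPKM level alone gave 664 higher (9.97%) and 1952 lower genes (29.3%), or 39.3% called in all beside 23.7% on the midpoint level. The split on the FPKM level changed with the scaling: with the sum taken over CDS of at least 300 nt, which leaves out NCU16635, 1975 genes were higher and 1103 lower, and the median gene then differed by 0.18 (log2). With each library centred on its median tested gene, 1151 genes were higher and 1693 lower on the FPKM level. Centring gave 719 higher and 834 lower on the midpoint level, where the 300-nt sum gave 896 higher and 666 lower. Without replicate 3 of both strains, 731 were higher and 599 lower on the midpoint level, and 894 higher and 1900 lower on the FPKM level. The counts also leaned on single WT libraries: without WT replicate 1 or WT replicate 2, the midpoint calls were 418 or 405 higher and 295 or 306 lower, and the higher FPKM calls were 428 or 418.

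**Figure D2:**
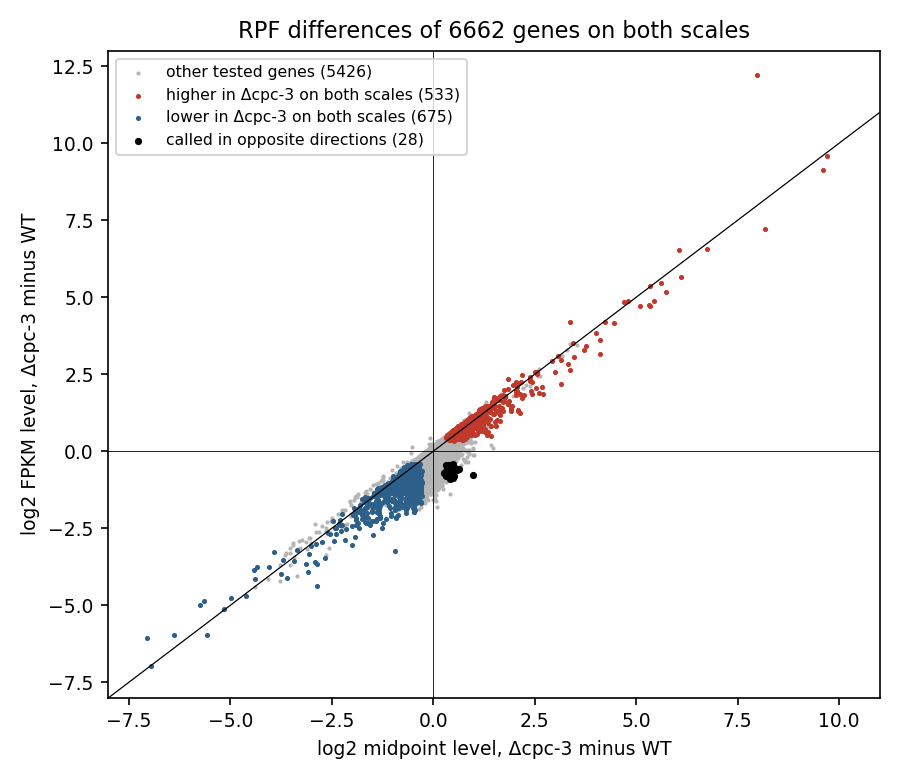
Log2 RPF difference (Δ*cpc-3* minus WT) of 6662 tested genes, midpoint level on the x axis and FPKM level on the y axis, with the line of equal values. Red and blue points are the 533 genes higher and the 675 genes lower on both levels, black points are the 28 genes called in opposite directions, and grey points are the rest. Most of the cloud lies under the line of equal values, and all 28 black points are lower on the FPKM level and higher on the midpoint level.

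The 10 largest gains in Δ*cpc-3* were 5.31 to 9.71 on the log2 midpoint scale. Among the genes called on both levels without overlap, 1045 reached a mean midpoint level of 10 in the higher strain, 474 of them higher and 571 lower in Δ*cpc-3*, and the 10 with the largest difference in each direction are given here. All 10 with the largest gain were also more than 2-fold higher in the Δ*cpc-3* mRNA library, so that RPFs and mRNA differed in the same direction. *lacc*, whose symbol stands for laccase, a copper enzyme that oxidizes phenols, had midpoint levels of 424, 438 and 422 in Δ*cpc-3* libraries, against 0.794, 1.61 and 2.02 in WT libraries (log2 difference 8.18 ± 0.32 (SE), adjusted p = 7.61e-05). Its mRNA level was 414 in Δ*cpc-3* and 2.71 in WT. The pheromone precursor gene *mfa-1*, which mat a strains express for mating, was at 14.9, 14.8 and 70.9 in Δ*cpc-3* libraries, against 0 in each of the 3 WT libraries. This is a CDS of 75 nt with about 8 counts over the 3 Δ*cpc-3* libraries, and Δ*cpc-3* replicate 3 was well above the other Δ*cpc-3* replicates. Against the limit for 0 in WT (3 counts over the group) it was at least 8.84-fold higher (log2 difference 7.97 ± 0.62 (SE), adjusted p = 0.000975). Without Δ*cpc-3* replicate 3 its fitted log2 difference was 7.22, and 11.45 on the FPKM level against 12.20 with it.

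*con-6*, a gene of conidiation, had 8.35, 21.5 and 27.6 in Δ*cpc-3* libraries, against 0, 1.65 and 0 in WT libraries (log2 difference 6.05 ± 1.21 (SE), adjusted p = 0.0196). Pooled over replicates it was 24.9-fold higher, with a 95% counting interval of 6.13 to 219, as WT held few counts. Its midpoint call was lost without WT replicate 1 (5.36, adjusted p = 0.0687), without WT replicate 3 (5.36, adjusted p = 0.064) and without Δ*cpc-3* replicate 2 (5.88, adjusted p = 0.0583), and without WT replicate 2 the difference was 7.42. Its FPKM difference was 6.52 with all libraries, 5.90 without WT replicate 1 or 3 and 7.76 without WT replicate 2. Without replicate 3 of both strains neither level passed (adjusted p = 0.112 on the midpoint and 0.0502 on the FPKM level). None of the other 9 genes lost a call when a library was left out.

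The other genes of this set are known here by their locus tag only. NCU09914 was almost absent from WT, at 394, 397 and 481 in Δ*cpc-3* libraries, against 1.35, 0.785 and 0 in WT libraries (log2 difference 9.71 ± 0.98 (SE), adjusted p = 0.00241), and its mRNA level was 356 in Δ*cpc-3* and 8.54 in WT. The fitted difference of NCU09914 was 8.54 without WT replicate 3 and 10.47 without WT replicate 1, and on the FPKM level 8.67 and 10.17 beside 9.57 with all libraries. NCU10641 had 84.6, 72.9 and 74.98 in Δ*cpc-3* libraries, against 0 in each of the 3 WT libraries, which is at least 156-fold higher against the limit for 0 (log2 difference 9.60 ± 0.09 (SE), adjusted p = 3.99e-07). Its mRNA level was 68.8 in Δ*cpc-3* and 0 in WT. NCU05277 had the highest level of the 10, at 1330.1, 1312 and 1394 in Δ*cpc-3* libraries, against 31.7, 34.1 and 33.8 in WT libraries (log2 difference 5.34 ± 0.08 (SE), adjusted p = 2.03e-06), and the groups lay far apart. NCU09629 had 55.5, 62.3 and 53.9 in Δ*cpc-3* libraries, against 0.972, 0.828 and 1.55 in WT libraries (log2 difference 5.60 ± 0.22 (SE), adjusted p = 7.92e-05).

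Lower in level but also separated were NCU08051, NCU07149 and NCU09402. NCU08051 had 45.9, 60.1 and 70.3 in Δ*cpc-3* libraries, against 0.181, 0.788 and 0.522 in WT libraries (log2 difference 6.75 ± 0.44 (SE), adjusted p = 0.000503). NCU07149 had 22.2, 17.3 and 20.8 in Δ*cpc-3* libraries, against 0.322, 0.499 and 0 in WT libraries (log2 difference 6.10 ± 0.66 (SE), adjusted p = 0.00295), and its difference was 5.32 without WT replicate 3. NCU09402 had 35.1, 28.6 and 35.6 in Δ*cpc-3* libraries, against 0.663, 0.362 and 1.56 in WT libraries (log2 difference 5.31 ± 0.46 (SE), adjusted p = 0.00131). In each of these 3 genes the lowest Δ*cpc-3* library was more than 10 times the highest WT library. By FPKM the 10 genes had log2 differences of 4.75 to 12.2, the largest for *mfa-1*. NCU04583 missed the first 10 and was singled out after its values were seen, for its high level in Δ*cpc-3*: 6841, 6649 and 7054 in Δ*cpc-3* libraries, against 349.7, 377 and 366 in WT libraries (log2 difference 4.23 ± 0.08 (SE), adjusted p = 5.26e-06), with mRNA at 4094 in Δ*cpc-3* and 396 in WT.

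**Figure D3:**
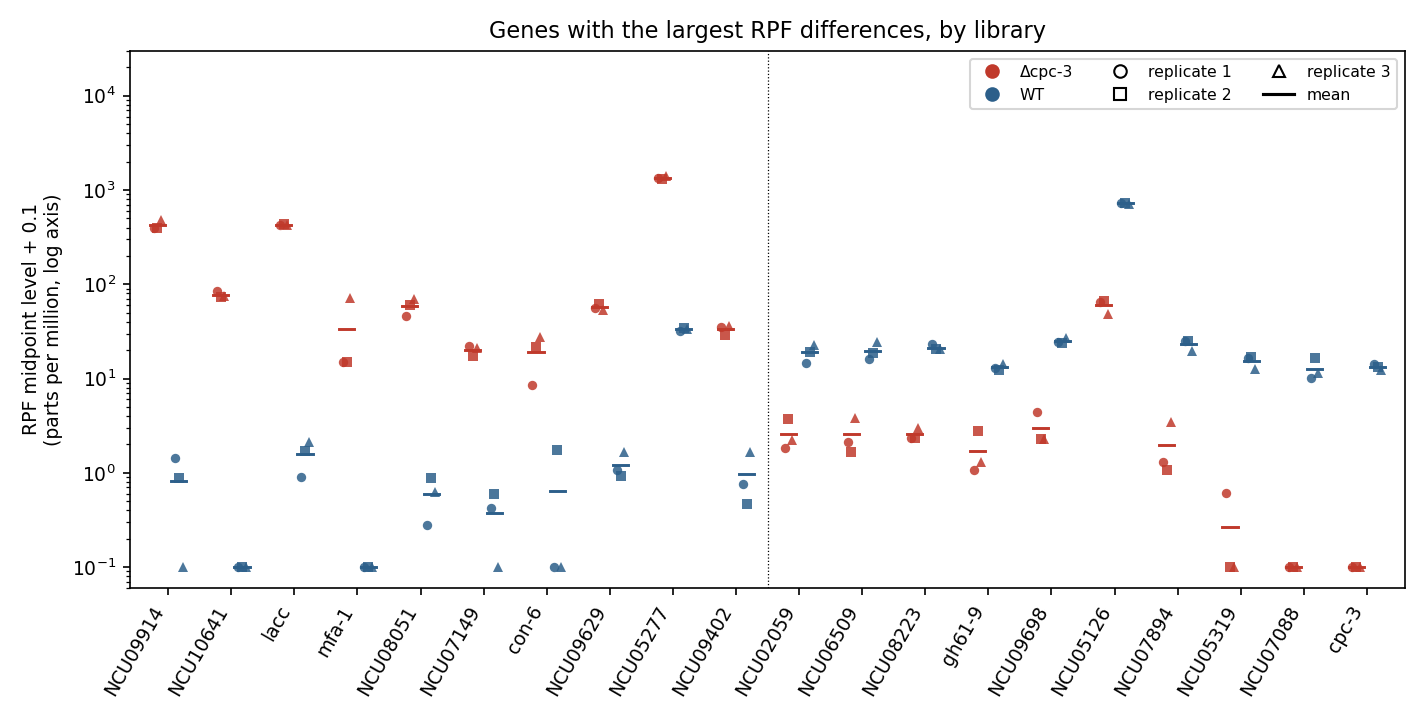
Midpoint RPF level + 0.1 (ppm, log axis) of the 10 genes with the largest and the 10 with the smallest log2 difference, by library. Red marks are Δ*cpc-3* and blue marks are WT, circles, squares and triangles are replicates 1, 2 and 3, and lines are means. The genes were picked among those without overlap between the strains. By this choice every Δ*cpc-3* library lies above every WT library left of the dotted line, and below every WT library right of it. *cpc-3* and NCU07088 are at 0 in Δ*cpc-3*.

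The largest losses fell in 2 kinds by their mRNA, which is given from 1 library per strain and without a test. *cpc-3* itself led, at least 101-fold lower in Δ*cpc-3* against the limit for 0 (log2 difference -7.06 ± 0.09 (SE), adjusted p = 1.17e-06), with an mRNA level of 0.407 in Δ*cpc-3* and 21.01 in WT. NCU07088 also had no RPF in Δ*cpc-3*, with 0 in each of the 3 Δ*cpc-3* libraries, against 9.94, 16.6 and 11.5 in WT libraries (log2 difference -6.96 ± 0.19 (SE), adjusted p = 2.35e-05). This CDS of 327 nt is at least 6.42-fold lower by counting, and its mRNA level was 0 in Δ*cpc-3* and 49.8 in WT. NCU05319 fell to about 1 count in Δ*cpc-3*, with 0.509, 0 and 0 in Δ*cpc-3* libraries, against 16.6, 16.98 and 12.5 in WT libraries (log2 difference -6.39 ± 0.73 (SE), adjusted p = 0.00346). The pooled ratio of NCU05319 was 0.0109, with a 95% counting interval of 0.000275 to 0.0614, and without Δ*cpc-3* replicate 1 the fitted difference was -7.26.

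NCU05126 had the highest level of the 10 genes with the largest losses. It had 64.6, 66.1 and 48.4 in Δ*cpc-3* libraries, against 735, 732 and 707 in WT libraries (log2 difference -3.61 ± 0.14 (SE), adjusted p = 7.61e-05), and its mRNA was lower too, at 46.9 in Δ*cpc-3* and 543 in WT. NCU07894 had 1.21, 0.975 and 3.38 in Δ*cpc-3* libraries, against 24.7, 24.9 and 19.5 in WT libraries (log2 difference -3.76 ± 0.45 (SE), adjusted p = 0.00398), and without replicate 3 of both strains the difference was -4.39. NCU09698 had 4.35, 2.21 and 2.17 in Δ*cpc-3* libraries, against 24.2, 23.7 and 26.9 in WT libraries (log2 difference -3.13 ± 0.28 (SE), adjusted p = 0.00141). For both the mRNA was lower in Δ*cpc-3*, at 4.69 in Δ*cpc-3* and 21.5 in WT for NCU07894 and at 1.33 in Δ*cpc-3* and 36.4 in WT for NCU09698. NCU08223 fell in the same way, with 2.27, 2.26 and 2.86 in Δ*cpc-3* libraries, against 22.9, 20.3 and 20.3 in WT libraries (log2 difference -3.06 ± 0.12 (SE), adjusted p = 7.92e-05) and mRNA at 3.16 in Δ*cpc-3* and 19.1 in WT.

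In 3 genes the RPFs fell and the mRNA did not fall with them. *gh61-9*, which encodes a lytic polysaccharide monooxygenase of the kind that cuts cellulose, had 0.966, 2.65 and 1.196 in Δ*cpc-3* libraries, against 12.96, 12.3 and 14.2 in WT libraries (log2 difference -3.08 ± 0.35 (SE), adjusted p = 0.00353), while its mRNA level was 98.8 in Δ*cpc-3* and 101 in WT. NCU02059 had 1.71, 3.66 and 2.16 in Δ*cpc-3* libraries, against 14.4, 19.2 and 22.8 in WT libraries (log2 difference -2.90 ± 0.31 (SE), adjusted p = 0.00282), with an mRNA level of 39.8 in Δ*cpc-3* and 45.1 in WT. NCU06509 had 2.04, 1.58 and 3.75 in Δ*cpc-3* libraries, against 15.9, 18.5 and 24.1 in WT libraries (log2 difference -3.01 ± 0.33 (SE), adjusted p = 0.00306), although its mRNA level was 109.8 in Δ*cpc-3* and 15.4 in WT, a difference in the opposite direction. All 10 genes with the largest losses were called on both levels in each of the 6 fits that left out 1 library. In the limma fit over all 25 RPF libraries the midpoint call of NCU06509 was lost (adjusted p = 0.0699). The FPKM differences of the 10 genes were -6.97 to -3.08.

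The other genes of the CPC-3 pathway differed little on the midpoint level. *cpc-1*, the transcription factor downstream of CPC-3, was at 684, 674 and 623 in Δ*cpc-3* libraries, against 609.9, 640.3 and 741 in WT libraries, with overlap between the strains (log2 difference -0.00 ± 0.10 (SE), adjusted p = 0.984). By FPKM *cpc-1* was at 0.19 ± 0.13 (adjusted p = 0.287), and with the 300-nt sum, the centring or without replicate 3 it passed as higher, at 0.60, 0.37 and 0.32 (adjusted p = 0.00272, 0.0234 and 0.0413). The gene of eIF2α, the substrate of CPC-3 (NCU08277), was at 294, 311 and 279 in Δ*cpc-3* libraries, against 321, 317 and 299 in WT libraries (log2 difference -0.08 ± 0.08 (SE), adjusted p = 0.49). *cpc-2*, which encodes the ribosome-bound scaffold RACK1, was lower in all 3 Δ*cpc-3* libraries, at 818, 848 and 801 in Δ*cpc-3* libraries, against 958, 1010.2 and 1062 in WT libraries (log2 difference -0.30 ± 0.08 (SE), adjusted p = 0.047). This call was lost in each of the 6 fits without 1 library (adjusted p = 0.0857 to 0.144). By FPKM both fell, with -0.84 ± 0.14 (adjusted p = 0.00407) for the eIF2α gene and -1.23 ± 0.12 (adjusted p = 0.000764) for *cpc-2*.

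The reporter itself was read by its own pair of entries. The OPT-codon EDP entry had midpoint levels of 272, 267 and 275 in Δ*cpc-3* libraries, against 133, 129 and 148 in WT libraries, so that every Δ*cpc-3* library was above every WT library. The means were 271 ± 4.16 in Δ*cpc-3* and 137 ± 10.3 in WT (SD, n = 3 each), a 1.99-fold difference (log2 0.99). By FPKM the entry had 77.1, 76.5 and 83.9 in Δ*cpc-3* libraries, against 70.8, 70.1 and 63.9 in WT libraries, a 1.16-fold difference (log2 0.21), and 0.63 (log2) with the 300-nt sum. Its mRNA midpoint level was 312 in Δ*cpc-3* and 169 in WT. The WT-codon EDP entry has the native codons of NCU05784, while these strains carry no WT-codon reporter. It is 1283 nt long in these libraries, longer than the native CDS, so its level per length is not that of native NCU05784. The entry had 20.96, 18.1 and 34.8 in Δ*cpc-3* libraries, against 9.90, 10.2 and 6.92 in WT libraries, a 2.66-fold difference. In exact two-sided permutation tests over libraries all 4 differences had p = 0.1 (adjusted over the 4 tests, 0.1), the smallest value that 3 against 3 libraries allow, so none could pass 0.05. The 2 entries differ in codons, and any sharing of reads between them was not tested.

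Genes of amino acid synthesis, the classical targets of cross-pathway control, leaned lower in Δ*cpc-3*. Of 56 such genes, all tested, 26 were lower and 4 higher on the midpoint level, and 49 were lower and 1 higher on the FPKM level. Of all genes tested, 10.8% were lower and 12.9% higher on the midpoint level, and 29.3% lower and 9.97% higher on the FPKM level. Their median log2 difference was -0.29 on the midpoint level, beside 0.01 for all genes tested, and -1.06 on the FPKM level, beside -0.24. With the 300-nt sum the FPKM median was -0.65, with 41 lower and 2 higher. On both levels without overlap 26 were lower and 1 higher, beside 10.1% lower and 7.99% higher among all genes tested. The 2 largest losses were *arg-10*, argininosuccinate lyase of the arginine pathway, and *trp-4*, an enzyme of the tryptophan pathway. *arg-10* had 177, 191 and 194 in Δ*cpc-3* libraries, against 358, 360.4 and 363 in WT libraries (log2 difference -0.94 ± 0.08 (SE), adjusted p = 0.00111). *trp-4* had 71.8, 69.6 and 68.4 in Δ*cpc-3* libraries, against 121, 122 and 141 in WT libraries (log2 difference -0.87 ± 0.09 (SE), adjusted p = 0.00282). In both the mRNA was lower as well, at 217 in Δ*cpc-3* and 378 in WT for *arg-10* and at 73.3 in Δ*cpc-3* and 128 in WT for *trp-4*. Of the genes called higher, *thr-5* had 59.8, 68.2 and 48.9 in Δ*cpc-3* libraries, against 41.6, 40.8 and 36.5 in WT libraries (log2 difference 0.56 ± 0.14 (SE), adjusted p = 0.0389) and *ser-7* had 1065, 1112 and 989 in Δ*cpc-3* libraries, against 716, 737 and 832 in WT libraries (log2 difference 0.47 ± 0.10 (SE), adjusted p = 0.021). These gains did not hold on removal of a library, since *thr-5* lost its midpoint call in 5 and *ser-7* in 4 of the 6 fits, and *ser-7* was lower on the FPKM level, at -0.66 ± 0.15 (adjusted p = 0.0151). Without replicate 3 of both strains, 19 of the 56 were lower and 4 higher on the midpoint level.

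Ribosomal protein genes also leaned lower in Δ*cpc-3*, with a midpoint median close to that of the amino acid list and a smaller FPKM median. In a list of 40 genes with short CDS and optimal codons, taken from the study and so not independent of it, 13 were lower and 1 higher on the midpoint level (median -0.28), and 21 were lower and 1 higher on the FPKM level (median -0.55), beside 10.8% and 29.3% lower among all genes tested. NCU08500 had 767, 768 and 821 in Δ*cpc-3* libraries, against 1119, 1162 and 1416 in WT libraries (log2 difference -0.64 ± 0.11 (SE), adjusted p = 0.0138). NCU08502 had 1091, 1128 and 989 in Δ*cpc-3* libraries, against 1524, 1505 and 1849 in WT libraries (log2 difference -0.60 ± 0.12 (SE), adjusted p = 0.0172), and this midpoint call was lost without WT replicate 1 (adjusted p = 0.0534). Both had about as much mRNA in Δ*cpc-3* as in WT or more, at 1513 in Δ*cpc-3* and 1422 in WT for NCU08500 and at 1733 in Δ*cpc-3* and 1506 in WT for NCU08502. NCU06048 was the 1 member called higher, with 1116, 1094 and 942 in Δ*cpc-3* libraries, against 687, 621 and 747 in WT libraries (log2 difference 0.62 ± 0.11 (SE), adjusted p = 0.0153). Its call was lost without WT replicate 1 or 2 (adjusted p = 0.0607 in each fit). With the 300-nt sum, 17 of the 40 were lower and 10 higher on the FPKM level, with a median of -0.14. On the midpoint level (log2 difference ± SE) NCU07857 was at -0.30 ± 0.07 (adjusted p = 0.0341) and kept its midpoint call in 1 of the 6 fits without 1 library.

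Elongation factors *tef-1* and *cot-3* were called in opposite directions on the 2 levels. *tef-1*, elongation factor 1α, which brings aminoacyl-tRNA to the ribosome, had midpoint levels of 17004, 17141 and 17033 in Δ*cpc-3* libraries, against 12287, 12048 and 11996 in WT libraries (log2 difference 0.49 ± 0.07 (SE), adjusted p = 0.00669). By FPKM *tef-1* was lower, at -0.87 ± 0.16 (adjusted p = 0.00662), with means of 3263 in Δ*cpc-3* and 6021 in WT. *cot-3*, elongation factor 2, had 2904, 2898 and 2823 in Δ*cpc-3* libraries, against 2147, 2199 and 2343 in WT libraries (log2 difference 0.37 ± 0.08 (SE), adjusted p = 0.0219), and -0.80 ± 0.16 (adjusted p = 0.00778) on the FPKM level. The midpoint call of *cot-3* was lost in 4 of the 6 fits without 1 library (adjusted p up to 0.0923). Of the 3 translation factors listed by symbol, 2 were higher and 0 lower on the midpoint level and 3 lower on the FPKM level. Among all genes tested, 12.9% were higher and 10.8% lower on the midpoint level, and 29.3% lower on the FPKM level. Among the 28 genes called in opposite directions, *cot-3*, *arg-6* and NCU07936 had the longest CDS. *arg-6*, which encodes enzymes of the arginine pathway, was at 0.35 ± 0.09 (adjusted p = 0.0406) on the midpoint and at -0.71 ± 0.15 (adjusted p = 0.00996) on the FPKM level, and its midpoint call was kept in 1 of the 6 fits. NCU07936 was at 0.49 ± 0.08 (adjusted p = 0.00965) and at -0.55 ± 0.13 (adjusted p = 0.0174). As both levels come from the same reads, the part of the ratio of FPKM to midpoint in these calls was not tested.

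Chaperone genes also differed between the 2 levels. Of 11 genes with *hsp* or *grp* symbols, 10 were tested, and 8 of them were lower on the FPKM level (median -1.34), while on the midpoint level 2 were lower and 1 higher (median 0.05). Of all genes tested, 29.3% were lower and 9.97% higher on the FPKM level, and 10.8% lower and 12.9% higher on the midpoint level. *hsp70-2* had midpoint levels of 662, 689 and 645 in Δ*cpc-3* libraries, against 939, 912 and 862 in WT libraries (log2 difference -0.44 ± 0.08 (SE), adjusted p = 0.0141) and lost its call without WT replicate 1 or 2 (adjusted p = 0.0662 and 0.0649). *hsp70-1* was at -0.30 ± 0.07 (adjusted p = 0.0321) and *hsp90a* at 0.37 ± 0.08 (adjusted p = 0.0286) on the midpoint level, and both calls were lost in at least 5 of the 6 fits without 1 library. The same shares stand beside the counts of 14 proteasome genes, which encode the protease that degrades ubiquitinated proteins. Their midpoint level was higher for 4 and lower for 0 (median 0.20). The FPKM level was higher for 2 and lower for 2 (median -0.16, and 0.26 with the 300-nt sum). NCU07913 led them, with 235, 204 and 259 in Δ*cpc-3* libraries, against 135, 116 and 129 in WT libraries (log2 difference 0.87 ± 0.12 (SE), adjusted p = 0.00641), and it was called on both levels in every fit that left out 1 library. NCU05227 was at 0.47 ± 0.10 (adjusted p = 0.0209), *pca-3* at 0.45 ± 0.10 (adjusted p = 0.0232) and *pcb-4* at 0.42 ± 0.07 (adjusted p = 0.0133). The first of these and *pca-3* were called in 2 of the 6 midpoint fits, and *pcb-4* in 4.

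Few genes of oxidative phosphorylation and transcription were called on the midpoint level, where 12.9% of all genes tested were higher and 10.8% lower. On the FPKM level 9.97% of all genes tested were higher and 29.3% lower. Of 40 genes of oxidative phosphorylation, 3 were higher and 3 lower on the midpoint level (median 0.02), and 2 were higher and 17 lower on the FPKM level (median -0.27, and 0.15 with the 300-nt sum). *cox-6*, a subunit of cytochrome oxidase, was at 0.46 ± 0.10 (adjusted p = 0.022), and *vma-3*, a subunit of the vacuolar proton pump, at 0.35 ± 0.07 (adjusted p = 0.0228). *fes-1*, the iron-sulfur protein of complex III, was at -0.43 ± 0.08 (adjusted p = 0.0184), and NCU09143 at -0.61 ± 0.12 (adjusted p = 0.0162). Of these midpoint calls, 3 were kept in only 2 of the 6 fits without 1 library, and that of NCU09143 in 5. Without replicate 3 of both strains, those of *vma-3* and NCU09143 were lost (adjusted p = 0.0567 and 0.0683). Of 40 transcription genes with long CDS and non-optimal codons, 30 were tested, 1 was higher and 3 were lower on the midpoint level (median -0.07), and 0 were higher and 6 lower on the FPKM level (median -0.13, and 0.28 with the 300-nt sum). *col-20*, a gene of colonial growth form, had 6.95, 7.09 and 8.13 in Δ*cpc-3* libraries, against 15.96, 14.1 and 16.7 in WT libraries (log2 difference -1.06 ± 0.11 (SE), adjusted p = 0.00243), and NCU03878 had 3.04, 3.78 and 3.58 in Δ*cpc-3* libraries, against 7.58, 7.29 and 6.03 in WT libraries (log2 difference -0.99 ± 0.13 (SE), adjusted p = 0.00565). Both were called in every fit that left out 1 library. The call of *nuc-1*, an activator of phosphate acquisition genes, at 0.48 ± 0.12 (adjusted p = 0.0343), and that of NCU01386, at -0.85 ± 0.24 (adjusted p = 0.0489), were kept in 1 of the 6 fits each.

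Genes of conidiation and of clock-controlled output held the 2 largest gains of the 8 lists, *con-6* and *eas*. Of 14, 12 were tested, and 3 were higher and 3 lower on each level, beside 12.9% and 10.8% of all genes tested on the midpoint level and 9.97% and 29.3% on the FPKM level. The hydrophobin gene *eas*, whose protein coats conidia and aerial hyphae, had 4189.6, 3859 and 3474 in Δ*cpc-3* libraries, against 865, 846 and 936 in WT libraries (log2 difference 2.12 ± 0.10 (SE), adjusted p = 0.000146), with mRNA at 1629 in Δ*cpc-3* and 556 in WT. In contrast, *con-8* and *con-10* did not pass, at 0.39 ± 0.15 (adjusted p = 0.108) for *con-8* and 0.14 ± 0.45 (adjusted p = 0.843) for *con-10*. *ccg-13* was higher by 0.84 on the midpoint level (adjusted p = 0.00542) and by 0.47 on the FPKM level (adjusted p = 0.0252). *ccg-9*, a gene of trehalose synthesis, fell, with 12.02, 10.3 and 11.3 in Δ*cpc-3* libraries, against 33.4, 31.7 and 31.4 in WT libraries (log2 difference -1.51 ± 0.09 (SE), adjusted p = 0.000368). *ccg-15* had 601, 575 and 544 in Δ*cpc-3* libraries, against 807, 821 and 769 in WT libraries (log2 difference -0.48 ± 0.08 (SE), adjusted p = 0.012), a midpoint call lost without WT replicate 1 or 2 (adjusted p = 0.0565 and 0.0586). So 2 of the 4 markers of conidia and aerial hyphae were called higher in Δ*cpc-3* on both levels, and their part in the differences of other genes was not tested.

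**Figure D4:**
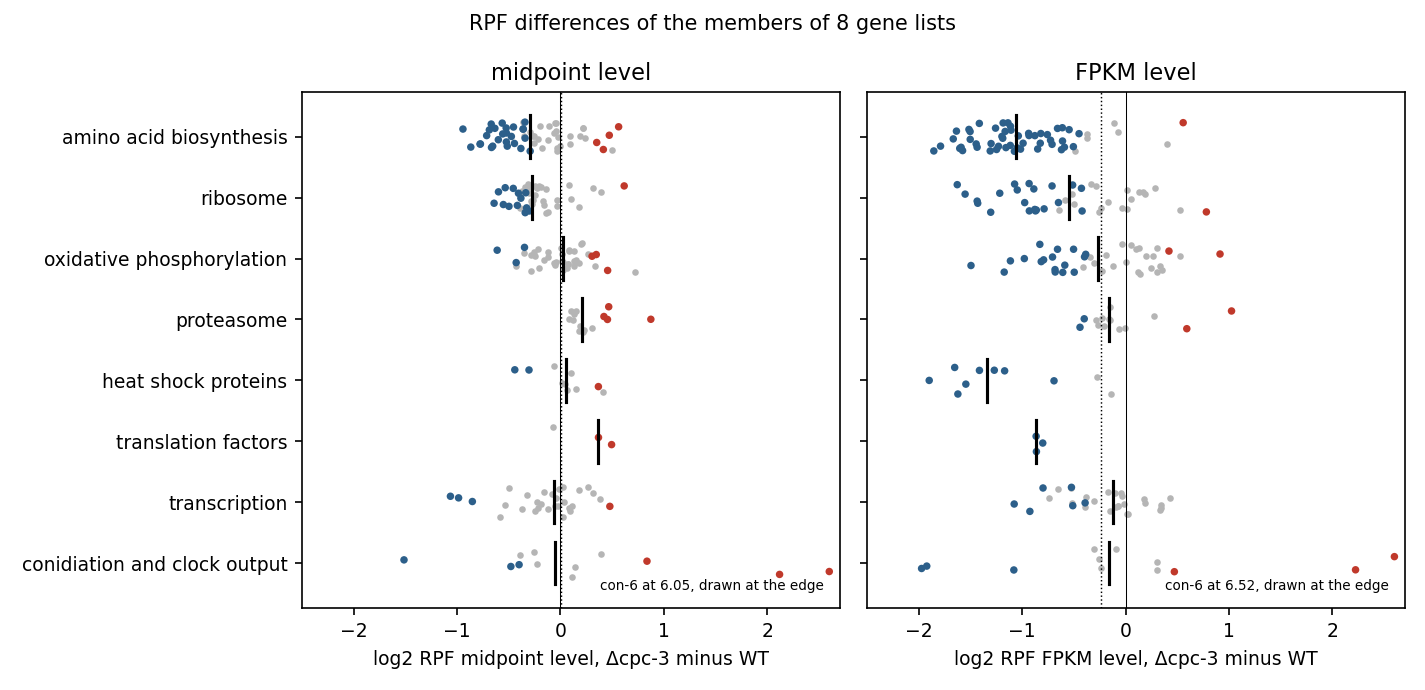
Log2 RPF difference (Δ*cpc-3* minus WT) of the tested members of 8 gene lists, midpoint level on the left and FPKM level on the right. Red and blue points passed the limma test as higher and lower, grey points did not, short black lines are list medians and the dotted line is the median of all 6662 tested genes. Genes of amino acid biosynthesis lie mostly below 0 on both levels, while heat shock proteins and translation factors lie below 0 on the FPKM level and around or above it on the midpoint level, and *con-6* lies beyond the axis at 6.05 and 6.52.

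The study asked whether CDS length and codon optimality set the response to CPC-3, so both were summed up in 1 value per library. The study used ribosome density, codon decoding times and protein levels, among other measures. The values here are RPF levels not divided by mRNA, so differences in mRNA enter them too, and their part was not tested. For length this was the median log2 level of CDS over 1800 nt minus that of CDS under 900 nt. Midpoint levels gave -2.25, -2.20 and -2.4 in Δ*cpc-3*, against -2.09, -2.10 and -2.0 in WT, a difference of -0.22 (-0.14 as a mean over genes). FPKM levels gave -2.97, -2.95 and -2.98 in Δ*cpc-3*, against -2.65, -2.70 and -2.51 in WT, a difference of -0.34. Long CDS were thus lower relative to short ones in every Δ*cpc-3* library than in any WT library. Exact two-sided permutation tests gave p = 0.1 for both, the smallest value possible here. By gene, 326 of 1674 short CDS were higher (19.5%) and 135 lower (8.06%) on the midpoint level. Of 2799 CDS of 900 to 1800 nt, 356 were higher (12.7%) and 393 lower (14.04%). Of 2189 long CDS, 178 were higher (8.13%) and 189 lower (8.63%), beside 12.9% higher and 10.8% lower among all genes tested. The median log2 difference was 0.12 for short CDS, -0.021 for the middle class and -0.025 for long CDS. By FPKM 321 short, 958 middle and 673 long CDS were lower (19.2%, 34.2% and 30.7%). On neither level was the share of lower genes largest for long CDS.

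For codons the value was the median log2 level of the genes with the lowest tRNA adaptation index (tAI) minus that of the genes with the highest. Each group was 25% (769 genes) of the 3075 tested genes that had a tAI, out of 6662 tested. The tAI values came from the study's tables of proteins found by mass spectrometry. The paper cautions that its mass spectrometry missed most proteins whose mRNAs have poor codons. FPKM levels gave -1.84, -1.84 and -1.80 in Δ*cpc-3*, against -2.60, -2.54 and -2.60 in WT, a difference of 0.76. Midpoint levels gave -2.41, -2.38 and -2.34 in Δ*cpc-3*, against -2.49, -2.5 and -2.46 in WT, a difference of 0.11, which was 0.25 over genes with a mean of at least 10 and 0.18 as a mean over genes. Both had p = 0.1 in exact two-sided permutation tests, with no overlap between the strains. Among genes with a tAI, those with the lowest were thus higher relative to those with the highest in every Δ*cpc-3* library than in any WT library. The difference was larger on the FPKM level. Of the 769 genes with the highest tAI, 547 were lower (71.1%) and 35 higher (4.55%) on the FPKM level. On the midpoint level 150 were lower (19.5%) and 73 higher (9.49%). Of the 769 genes with the lowest tAI, 124 were lower and 103 higher by FPKM, and 59 lower and 124 higher by midpoint. Of all tested genes with a tAI, 39.0% were lower and 7.71% higher by FPKM, and 11.2% lower and 12.7% higher by midpoint. In the libraries compared here, the ratio of FPKM to midpoint moved with the strain as well. For long CDS with 1xWT-EDP its median was 0.915, 0.951 and 0.956 in Δ*cpc-3* replicates 1 to 3, and 0.742 in replicate 4. The WT libraries with 1xWT-EDP had 0.946, 0.953 and 1.004. With 1xOPT-EDP and 3xWT-EDP it was 0.749 to 0.794 in Δ*cpc-3* and 0.972 to 1.008 in WT. The ratio thus also differed between Δ*cpc-3* libraries with the same reporter, and its part in the FPKM values was not tested.

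**Figure D5:**
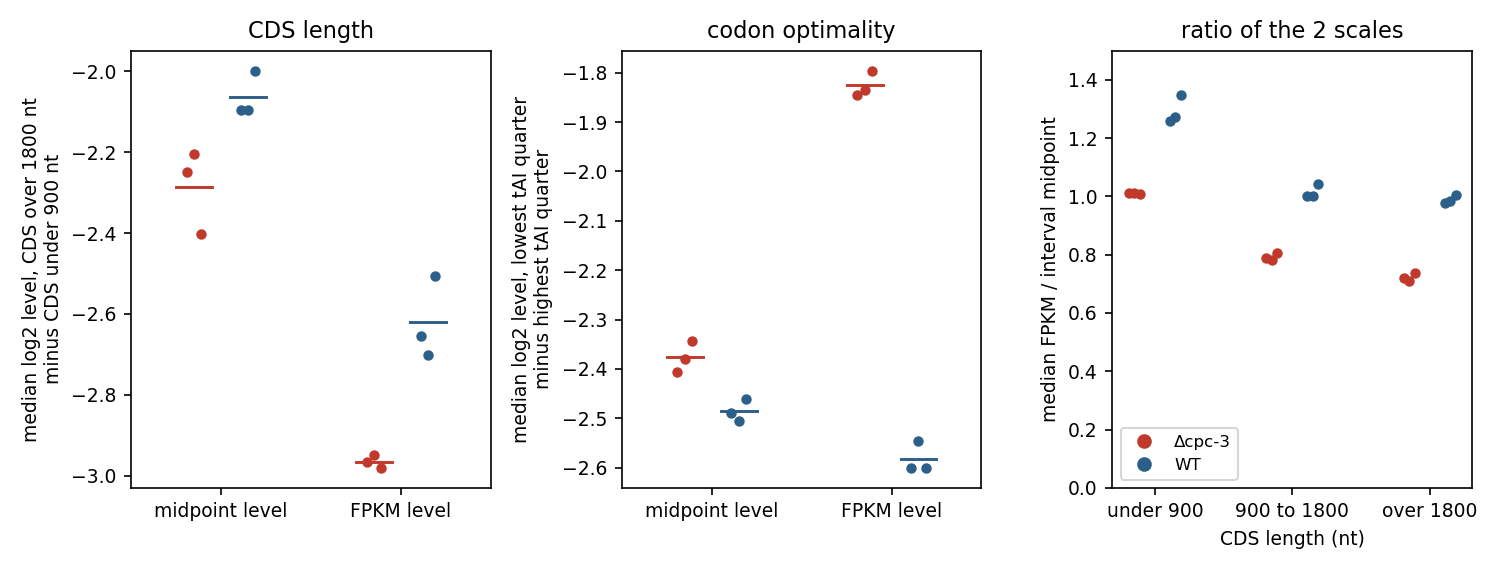
Length contrast, codon contrast and ratio of FPKM to interval midpoint, by library, for Δ*cpc-3* (red) and WT (blue). Points are libraries and lines are means (n = 3), the first 2 panels are in log2 units, and the third gives the median ratio for CDS under 900, 900 to 1800 and over 1800 nt. The codon contrast differs by 0.76 on the FPKM level and by 0.11 on the midpoint level, and the ratio for long CDS is 0.71 to 0.74 in Δ*cpc-3* and 0.98 to 1.01 in WT.

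Ribosome density, the RPF level over the mRNA level of the same strain, was lower in Δ*cpc-3* for most genes on this relative scale. It rests on 1 mRNA library per strain and is given without a test. Both levels are shares of a library sum, so a shift common to most genes cannot show fewer ribosomes per mRNA. Before division by mRNA, the median RPF difference was 0.01 on the midpoint level. The 10 entries with the most steps held 14.2% of the steps in the Δ*cpc-3* mRNA library and 19.6% in that of WT. The part of this in the density was not tested. The median log2 difference was -0.31 on the midpoint level and -0.61 on the FPKM level. By midpoint 239 genes were past 2-fold (3.59%) and 1246 were below 0.5-fold (18.7%). By FPKM 261 genes were past 2-fold (3.92%) and 1941 below 0.5-fold (29.1%). On both levels 205 were past 2-fold and 1161 below 0.5-fold. With the differences centred on their median, the midpoint counts were 465 and 791 and the FPKM counts 785 and 660, so the direction of the surplus on the FPKM level turned with the centring.

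The largest differences recurred in the other pairs of strains, which were sequenced as separate libraries. All 20 genes with the largest differences had the same sign in Δ*cpc-3* against WT with 1xOPT-EDP, 3xWT-EDP and 1xWT-EDP, on both levels. These 20 include *cpc-3*, whose loss in every Δ*cpc-3* strain was fixed by the deletion. By midpoint 19 of the 20 were called with 1xOPT-EDP, 18 with 3xWT-EDP and 17 with 1xWT-EDP. Of the 532 genes higher on both levels without overlap, 69.5%, 63.7% and 76.9% were also called higher on the midpoint level in these 3 pairs, where 14.1%, 11.3% and 21.7% of all genes tested were. Seen from those lists, the shared genes were 39.5%, 45.1% and 28.2% of the genes called higher there. Of the 675 lower genes, 76%, 77.6% and 65.2% were also called lower, beside 17.7%, 20.5% and 18.1% of all genes tested, and these made up 43.5%, 38.4% and 36.5% of the genes called lower there.

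How many genes answered *cpc-3* deletion differently with 3xOPT-EDP depended on the fit. In one limma fit without a block over 25 RPF libraries, the difference between Δ*cpc-3* and WT with 3xOPT-EDP departed from that with 1xOPT-EDP at 28 genes on the midpoint level (0.42%, 19 upward and 9 downward) and at 1 gene on the FPKM level (0.015%), with 756 and 660 genes at an unadjusted p under 0.05. Set against 3xWT-EDP, 64 genes departed on the midpoint level (0.961%, 41 upward and 23 downward) and 13 on the FPKM level (0.195%, 1 upward and 12 downward), with 881 and 515 at an unadjusted p under 0.05. With the replicate number as a block, 147 genes departed on the midpoint level and 58 on the FPKM level against 1xOPT-EDP, and 250 and 93 against 3xWT-EDP. NCU08720 departed in both settings and on both levels. Its midpoint levels were 151, 159.5 and 152 in Δ*cpc-3* libraries, against 200.4, 185 and 173 in WT libraries, a log2 difference of -0.27 that did not pass, while it was higher in Δ*cpc-3* by 0.77 with 1xOPT-EDP and by 0.78 with 3xWT-EDP. On the FPKM level NCU08720 was called lower in each of the 6 fits without 1 library, at -0.86 to -0.81. NCU02997 departed upward in both settings on the midpoint level. It was at 16.1, 20.003 and 19.2 in Δ*cpc-3* libraries, against 4.03, 7.74 and 6.73 in WT libraries (log2 difference 1.61 ± 0.25 (SE), adjusted p = 0.00973), with log2 differences of -0.09 with 1xOPT-EDP and -0.22 with 3xWT-EDP that did not pass. Its midpoint call was lost without replicate 3 of both strains (adjusted p = 0.0581), and both genes were singled out after their values were seen. Of the 20 genes with the largest changes, NCU05126 and NCU08223 fell further with 3xOPT-EDP than with 3xWT-EDP, with log2 differences of -3.61 and -1.46 for NCU05126 and of -3.06 and -1.11 for NCU08223.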

How the data were processed

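RPFs and mRNA from mycelia were sequenced from libraries made with the ARTseq kit, and reads were mapped to CDS. Per the labels' processing notes, the authors used Bowtie2 and Cufflinks; versions and genome build were not given in the sources used here. The deposited values are FPKM with the bounds of an interval per gene. What was done between reads and FPKM for CDS of different length, and how the intervals relate to FPKM, is not given there either.

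From these, the FPKM level and the midpoint level (ppm of the library sum) were computed. Differences were tested with limma 3.58.1 (R 4.3.3) on log2(level + 0.1), a scale on which the difference of a low gene depends on the value added, over 6 libraries without a block. Genes with a mean of at least 1 on both levels were tested, and p-values were adjusted by Benjamini-Hochberg (threshold 0.05). Interactions were fitted over 25 RPF libraries. For single values per library, two-sided exact permutation tests were used. The fits were tested on simulated data.

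Named genes were the 10 largest and 10 smallest midpoint differences among genes called on both levels without overlap and with a mean of at least 10, the pathway and strain construction genes, both EDP entries, the 2 extreme called members of each list in each direction, and the 3 longest CDS called in opposite directions. Members and lists were chosen with earlier results of these data known. The amino acid, chaperone, translation factor and conidiation lists were made by symbol, the others came from the study. Alternatives were the scaling, pseudocount, minimum level, an intensity trend, a replicate block, all libraries and leaving out libraries. Of the study's tables only these lists and the tAI values were used.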

Additional observations from a re-analysis of the deposited data

Results flagged for a closer look

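For several genes the log2 difference between RPFs of Δ*cpc-3* and WT with 3xOPT-EDP departed from that of the other strains, in the test of the difference itself (limma over 25 RPF libraries, adjusted p under 0.05). Each value is the difference with 3xOPT-EDP minus that with the other reporter.

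Against 1xOPT-EDP, NCU08720 departed by -1.07 on the FPKM level (adjusted p = 9.29e-05) and by -1.04 on the midpoint level (adjusted p = 0.00399). On the midpoint level alone, NCU02997 departed by 1.70 (adjusted p = 0.0474). NCU02884 departed by -2.19 (adjusted p = 0.0124), as its difference was -0.42 with 3xOPT-EDP, 1.78 with 1xOPT-EDP and -0.39 with 3xWT-EDP. The mitochondrial chaperonin gene *hsp60* departed by 0.86 (adjusted p = 0.00157), *hsp70-5* by 0.45 (adjusted p = 0.037) and *ccg-16* by -0.52 (adjusted p = 0.00374). On the midpoint level *hsp60* differed by 0.01 with 3xOPT-EDP and by -0.85 with 1xOPT-EDP.

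Against 3xWT-EDP, NCU05126 departed by -2.19 on the FPKM level (adjusted p = 0.00178) and by -2.15 on the midpoint level (adjusted p = 0.00511). NCU08223 departed by -2.06 on the FPKM level (adjusted p = 0.00809) and by -1.95 on the midpoint level (adjusted p = 0.00643). *ccg-9* departed by -1.17 on the FPKM level (adjusted p = 0.00809) and by -1.16 on the midpoint level (adjusted p = 0.00778). NCU08720 departed by -1.11 on the FPKM level (adjusted p = 5.39e-05) and by -1.05 on the midpoint level (adjusted p = 0.00177).

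On the midpoint level alone, set against 3xWT-EDP, the hydrophobin gene *eas* departed by 0.93 (adjusted p = 0.00346), with 2.12 with 3xOPT-EDP beside 1.19. NCU07894 departed by 2.20 (adjusted p = 0.0399), since it fell less with 3xOPT-EDP (-3.76) than with 3xWT-EDP (-5.96). NCU02997 departed by 1.83 (adjusted p = 0.0192) and *ccg-16* by -0.47 (adjusted p = 0.00292). The chaperone genes *hsp60*, *hsp70-5* and *grp78* departed by 0.71 (adjusted p = 0.00258), 0.45 (adjusted p = 0.0195) and 0.68 (adjusted p = 0.0413).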

How the results depend on the processing

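Of the values recomputed for whole comparisons, 134 stayed within 1.5 times of the reported count or, for a contrast, kept its direction, and 42 did not. No called log2 difference of a named gene changed sign, but the surplus of lower genes on the FPKM level turned with the 300-nt sum, that of higher genes on the midpoint level with centring (719 higher, 834 lower), and that of lower FPKM density with centring. For single genes 1767 calls were the same, 160 were lost and 41 were gained. The cause of each shift was not tested. By FPKM, higher genes numbered 1151 with centring, 1975 with the sum over CDS of at least 300 nt and 203 at 2-fold or more, and lower genes 1103 with that sum and 719 at 2-fold or more. By midpoint 217 were higher and 182 lower at 2-fold or more. Leaving out 1 library gave 418 to 775 higher and 1489 to 1725 lower genes on the FPKM level, and 405 to 790 higher and 295 to 718 lower on the midpoint level. Interactions with 1xOPT-EDP numbered 24 on the FPKM level and 15 on the midpoint level with centring, 10 and 58 at a minimum level of 10, and 1 to 2 and 14 to 19 without 1 library. Those with 3xWT-EDP numbered 55 on the FPKM level with centring, and 10 to 13 on the FPKM and 29 to 67 on the midpoint level without 1 library. Density past 2-fold and below 0.5-fold numbered 785 and 660 on the FPKM level and 465 and 791 on the midpoint level with centring, and at a minimum level of 10 these were 130, 733, 115 and 234.

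Same-numbered libraries of Δ*cpc-3* and WT did not deviate together (r = -0.04 to 0.03 on the FPKM and -0.06 to -0.00 on the midpoint level, with the same number closest in 1 of 6 comparisons, 3 libraries on 2 levels). Between reporters within a strain, same-numbered libraries had r = -0.00 to 0.27, with 0.20 to 0.27 for WT replicate 3, and not every pair passed 0.1. The same number was nonetheless the closest in most of these comparisons between reporters. It was so in every one for Δ*cpc-3* with 1xOPT-EDP and for WT with 3xWT-EDP. The interaction fits without a block, which gave the flagged genes, do not take this into account. With a replicate block, 509 genes were higher and 1510 lower on the FPKM level and 386 higher and 305 lower on the midpoint level, and the interactions numbered 58 and 147 with 1xOPT-EDP and 93 and 250 with 3xWT-EDP on the FPKM and midpoint levels. On the midpoint level the block left 12 lower and 0 higher genes of amino acid synthesis and 3 lower and 0 higher ribosomal genes. An exact sign-flip test over 3 pairs cannot go below p = 0.25. Without 1 library the length contrast was -0.39 to -0.29 on the FPKM and -0.26 to -0.16 on the midpoint level, the codon contrast 0.74 to 0.77 and 0.09 to 0.12, and the OPT-codon EDP difference 0.17 to 0.24 and 0.95 to 1.05. The shallowest library was Δ*cpc-3* replicate 3, and its part in the precision was not tested. Precision is limited by 1 mRNA library per strain wherever mRNA is used. A level of 0 was read only as under the limit of 3 counts.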

Other observations

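By their order on the linkage groups of the annotation, 6 of the 10 genes with the largest gain in Δ*cpc-3* lay within 50 genes of an end. NCU09629 was 5 genes from the nearer end, NCU07149 was 6, NCU09914 was 14, NCU10641 and NCU08051 were 18 each, and *con-6* was 22. Of the 10 genes with the largest loss, 0 lay that near, the nearest being NCU07088 at 59 genes. Of all 6661 genes tested with a known place, 5.39% lay within 50 genes of an end, beside 9.57% of the 533 genes called higher on both levels and 6.37% of the 675 called lower. The distance was chosen after the values were seen, and no test was made.

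The interval bounds of WT replicate 3 had another pattern than those of the other 5 libraries, and WT replicate 3 had it with every reporter (228 to 280 entries at 3 steps, beside 36 to 50 in WT replicates 1 and 2). In Δ*cpc-3* replicates 1, 2 and 3, 249, 229 and 291 entries had an upper bound of 5 steps and 56, 51 and 113 one of 3 steps. In WT replicates 1, 2 and 3, 226, 196 and 124 entries had an upper bound of 5 steps and 39, 50 and 280 one of 3 steps. The same library had the smallest share of the FPKM sum at NCU16635 of the 6 libraries, at 10.01%, and with the other reporters WT replicate 3 had 11.01% to 12.1%.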
